A study of Homo sapiens with 8 samples.

Results

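The genes described here are 9 genes of the complement system: C3 and C5, 2 central components; C1S and CFB, which encode proteases of the activation pathways; CFI and SERPING1, which encode regulators in the plasma; and CD46, CD55 and CD59, which encode regulators on the cell surface. They are named in a fixed list of symbols and were found in the table of 58206 genes by their Ensembl identifiers, 1 row each. The genes were selected on measured values, the counts in these same libraries compared between the same 2 groups, so the list was drawn up with its result in view. Values of the 9 genes in the comparison of the 2 groups are therefore given as a description, without p-values, and support nothing by themselves. The same holds for whether a gene was called, for its interval and for its range over alternative analyses, which reuse these libraries.

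RNA was sequenced from Alexander1, an established line from a human hepatocellular carcinoma, in 4 parental libraries (genotype label wt, Axin1 -) and 4 libraries of a derivative (genotype label Axin1 +). Per the series' design text, the line's own Axin1 lacks the region that binds the kinase GSK3, which leaves Wnt signalling always on, and the derivative carries full-length Axin1. Per the labels' protocols, Axin1 came from a retroviral plasmid with hygromycin B selection of clones, a text that stands with the samples of both groups, and both grew in the same medium with serum. A difference that came with the selected clone and one that came with Axin1 cannot be told apart. The labels do not say whether replicates were separate cultures, so p-values measure the spread between these libraries, which may be technical.

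Complement is a cascade of plasma proteins made largely by the liver. The classical and lectin pathways and the alternative pathway all cleave C3, after which C5 is cleaved and a pore of terminal components can form on a membrane. Host cells limit the cascade with plasma regulators and with membrane proteins. Of the membrane proteins, CD55 and CD59 are held by a glycosylphosphatidylinositol (GPI) anchor, and CD46 by a transmembrane segment. In liver cells, complement genes are known targets of interleukin-6, interferon and other inflammatory signals.

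Promoter windows are shown for 4 of the genes: CFI and CD55, which were higher in the restored-labelled libraries, CFB, which had counts only there, and CD59, which has the same kind of anchor as CD55 and overlapped between the groups. The windows are RefSeq sequences on GRCh38.p14, from 250 bases before to 50 after the start, 5′ to 3′ on the gene's strand. They are chr4:109801950-109802249 (minus strand), chr1:207321428-207321727 (plus), chr6:31945845-31946144 (plus) and chr11:33736430-33736729 (minus), in the order of the lines. Capitals mark matches on either strand to any of 8 motifs. The motif searched for STAT factors was TTCNNNGAA and that for C/EBP was TTGCNNAA. For NF-kB it was GGGA followed after 4 bases by CC, and for the interferon response element GAAA followed after 2 bases by the same letters. For TCF/LEF factors, through which Wnt signalling acts, it was CTTTGA. The others were the TATA box, searched as TATAAA, the CCAAT box, searched by those letters, and the GC box, searched as GGGCGG.
CFI: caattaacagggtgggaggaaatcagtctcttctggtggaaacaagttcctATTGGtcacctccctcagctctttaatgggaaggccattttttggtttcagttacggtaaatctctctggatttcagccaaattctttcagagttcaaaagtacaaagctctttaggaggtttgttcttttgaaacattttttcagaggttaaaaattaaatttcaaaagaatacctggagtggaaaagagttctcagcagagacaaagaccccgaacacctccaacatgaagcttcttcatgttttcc
CD55: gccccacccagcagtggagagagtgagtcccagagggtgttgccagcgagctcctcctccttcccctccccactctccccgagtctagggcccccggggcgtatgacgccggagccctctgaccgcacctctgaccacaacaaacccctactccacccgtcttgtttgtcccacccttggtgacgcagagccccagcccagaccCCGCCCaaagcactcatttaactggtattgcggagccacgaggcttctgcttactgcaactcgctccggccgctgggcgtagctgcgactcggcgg
CFB: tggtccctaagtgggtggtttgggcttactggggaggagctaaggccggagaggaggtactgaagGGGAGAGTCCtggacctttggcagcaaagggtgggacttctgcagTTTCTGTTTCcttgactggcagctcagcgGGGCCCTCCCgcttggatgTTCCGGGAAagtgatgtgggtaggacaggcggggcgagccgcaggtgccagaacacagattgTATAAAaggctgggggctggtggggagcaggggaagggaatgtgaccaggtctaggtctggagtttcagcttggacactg
CD59: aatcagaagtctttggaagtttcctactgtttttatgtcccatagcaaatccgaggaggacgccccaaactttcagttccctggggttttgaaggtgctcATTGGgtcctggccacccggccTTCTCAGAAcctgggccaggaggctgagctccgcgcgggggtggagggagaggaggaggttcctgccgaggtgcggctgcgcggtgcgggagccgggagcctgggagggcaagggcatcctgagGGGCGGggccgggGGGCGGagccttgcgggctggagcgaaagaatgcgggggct
The CFB window held a STAT match at position -92, where 0 is the start base, NF-kB matches at -185 and -111, an interferon response element match at -140 and a TATA box at -30. The CD59 window shown, the one listed first of 4, held a STAT match at -128, a CCAAT match and 2 GC boxes. Of the others of CD59, window 2 overlaps it and holds the same matches, window 3 held C/EBP matches at -191 and -53 and a CCAAT match, and window 4 held none. The CFI window held 1 CCAAT match, and the CD55 window 1 GC box. None of these matches overlapped another in the 4 windows, and the letters CTTTGA and TTGCNNAA did not occur in them. Of all 35116 windows of the same length, 7.66% held the STAT letters, 25.6% the NF-kB, 3.57% the interferon response element, 11.5% the TATA, 34.6% the CCAAT and 45% the GC box letters, while 12.9% held CTTTGA and 10.5% TTGCNNAA. The GC content was 39.3% in the window of CFI, against 65% for CD55, 59% for CFB and 64.3% for CD59 and a median of 58.7% over all windows. Of the 9 genes, 6 had a window in the table; C3, C1S and SERPING1 had none.

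The libraries held between 11232951 and 15263761 counts in the parental group and between 12372436 and 26400782 in the restored-labelled group. AXIN1 had a mean of 52.4 CPM ± 3.49 in the former and 45.4 CPM ± 5.13 in the latter (SD, n = 4 each; CPM is the count relative to the scaled library total), which is -0.21 on the log2 scale (SE 0.12, edgeR adjusted p = 0.267). AXIN1 was thus not shown to be higher in the libraries labelled as restored, and each direction below rests on the labels. All 14 hepatocyte markers examined were tested, with a summed level of 19687 to 25147 TPM (like CPM, but also scaled for exon length) in parental and 20196 to 24187 TPM in restored-labelled libraries. Within that sum 4 markers passed the test as higher and 4 as lower, among them AHSG (log2 difference -3.22), APOA2 (-2.14) and FGB (2.05). Of all genes tested 10.4% passed as higher and 8.77% as lower. ALB, which did not pass (log2 difference 1.51, edgeR adjusted p = 0.211), varied widely within a group. It ranged from 46.7 to 208 CPM in parental and from 13.8 to 681 CPM in restored-labelled libraries. The sum was led by SERPINA1 and APOA2 in the parental and by SERPINA1 and FGA in the restored-labelled group, and the part of these moves in the results on complement genes was not tested. Of 9 macrophage markers 1 was tested, LYZ, at 1483 TPM and 1553 TPM, while CSF1R and TYROBP had 0 counts in every library and PTPRC at most 2, so LYZ made up nearly the whole summed level of 680 to 1894 TPM and 1315 to 1974 TPM. Of 9 fibroblast or stellate markers 2 were tested, with a summed level of at most 1.55 TPM and 2.28 TPM, and 1 of them, PDGFRB, fell, at 1.69 CPM ± 0.639 against 0.221 CPM ± 0.162 (SD, n = 4 each, edgeR adjusted p = 0.0045). Of 7 endothelial markers 1 was tested, PECAM1, which rose, at 5.18 CPM ± 0.951 against 48.2 CPM ± 10.3 (SD, n = 4 each, edgeR adjusted p = 8.4e-06), and the summed level went from 1.95 to 3.08 TPM to between 16.6 and 28.8 TPM. TEK had 0 counts in every library, and KDR at most 2.

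Levels of the 9 genes were first compared with each other on the TPM scale. C3, the protein on which all activation pathways converge, was the highest in both groups, at 522 TPM ± 59.6 in parental and 548 TPM ± 84.2 in restored-labelled libraries (SD, n = 4 each). It made up between 72.4% and 77.3% of the summed TPM of the 9 genes in parental libraries, and between 57.8% and 62.5% in restored-labelled ones. The summed TPM was 599 to 738 in the former and 806 to 1111 in the latter. In bulk RNA, more cells with a transcript and more transcript per cell cannot be told apart.

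In the parental group the order after C3 was C5 (56.3 TPM), CD46 (46.2 TPM), SERPING1 (27.8 TPM), CD59 (25.4 TPM), CFI (10.8 TPM), C1S (8.72 TPM), CD55 (1.73 TPM) and CFB (0 counts). Of these neighbours, C5 and CD46, CD46 and SERPING1, SERPING1 and CD59, CD59 and CFI, and CFI and C1S overlapped in their ranges over libraries, whereas C3 and C5, C1S and CD55, and CD55 and CFB did not. In the restored-labelled group the order was C3, SERPING1 (120 TPM), CD46 (83.2 TPM), C5 (69.1 TPM), CFI (55.1 TPM), CD59 (30.3 TPM), CD55 (6.88 TPM), C1S (5.96 TPM) and CFB (0.344 TPM). There the ranges of SERPING1 and CD46, CD46 and C5, C5 and CFI, and CD55 and C1S overlapped, and those of the other neighbours did not. By these means SERPING1 stood in the fourth and then the second place, CFI in the sixth and then the fifth, and C5 in the second and then the fourth. The parental mean of SERPING1 rests on replicate 1, and without that library it was 14.0 TPM ± 3.15 (SD, n = 3), below CD59 at 30.3 TPM ± 4.34.

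**Figure D1:**
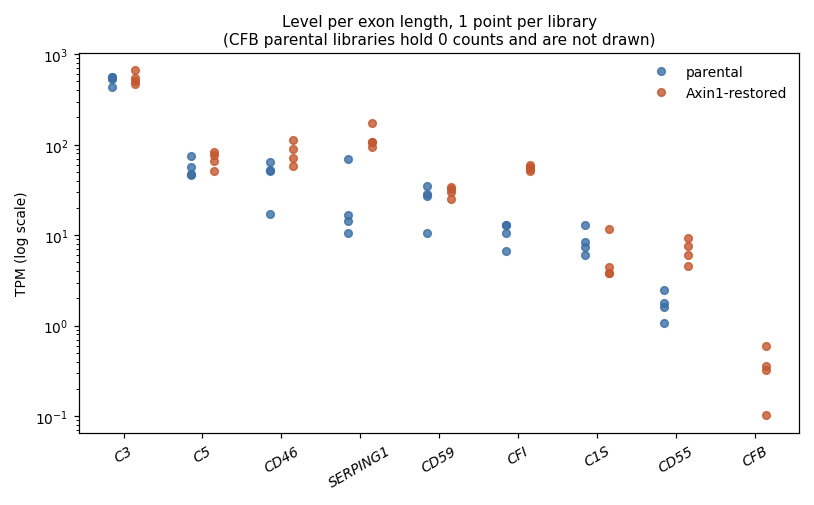
Level of each gene in TPM on a log axis, 1 point per library, with parental libraries on the left of each pair and restored-labelled ones on the right, ordered by the parental mean. The lowest value of C3 is 434 TPM, the parental libraries of CFB, with 0 counts, are not drawn, and the points of CFI, SERPING1 and CD55 do not overlap between the groups. On the CPM scale the groups did not overlap in 23.9% of all genes tested.

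The next comparison asked how the 9 genes stood between the groups in a fit over all 14289 genes that passed the expression filter. Of the 9 genes, 8 passed it and CFB did not. With the threshold at an adjusted p of 0.05, 3 of the 8 were called, CFI, SERPING1 and CD55, all higher in the restored-labelled libraries, and 5 were not called. Over all genes tested 19.2% were called, 10.4% higher and 8.77% lower. The groups did not overlap in CPM in 23.9% of all genes tested, with 12.7% higher in the restored-labelled libraries. The median log2 fold change was 0.47 for the 8 genes and 0.00 for all genes. The choice of the genes used this contrast, so nothing is read from these counts.

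CFI encodes factor I, the plasma protease that inactivates the cleaved forms of C3 and C4. It lies on chromosome 4, 109740694 to 109802179 in GRCh38 (ENSG00000205403). Parental replicates 1 to 4 had 11.5, 19.0, 18.2 and 14.2 CPM. The values of the restored-labelled replicates were 73.2, 80.7, 71.6 and 76.1 CPM, in the same numbering. Every restored-labelled library stood far above every parental one, and the former lay within 1.13-fold of each other. On the log2 scale the difference was 2.26 (SE 0.17; 1.90 to 2.63 with 95% confidence), or 4.80-fold. It lay between 2.14 and 2.36 in all 19 alternative analyses. The 20 tested genes around CFI, 10 on each side in order of start position, had a median of 0.06. Of these, 1 was called higher and 2 lower, beside 10.4% higher and 8.77% lower over all genes tested.

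SERPING1 encodes the C1 inhibitor, which blocks the proteases C1r and C1s. It lies on chromosome 11, 57597387 to 57614853 (ENSG00000149131). Parental replicate 1 had 87.6 CPM, and parental replicates 2 to 4 had 18.3, 14.9 and 10.6 CPM. The restored-labelled libraries had 165, 118, 111 and 88.8 CPM. The groups did not overlap, but parental replicate 1 came close to the lowest restored-labelled library, at 87.6 against 88.8 CPM. The difference on the log2 scale was 1.89 (SE 0.57; 0.64 to 3.14 with 95% confidence), or 3.70-fold, with the widest interval of the 8 genes. Without parental replicate 1 it was 3.05, and the call was lost when any single 1 of the other 7 libraries was left out, at log2 fold changes between 1.59 and 2.01. The 20 tested genes around SERPING1, 10 on each side, had a median of -0.17.

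C1S encodes the classical pathway protease that SERPING1 inhibits (chromosome 12, 6988259 to 7071032, ENSG00000182326). Parental replicates 1 to 4 had 29.6, 11.7, 13.6 and 15.03 CPM. The restored-labelled ones had 20.0, 7.59, 7.15 and 7.61 CPM. Replicate 1 was the highest library in each group, and the groups overlapped through restored-labelled replicate 1. A log2 difference of -0.71 (SE 0.39; -1.56 to 0.14 with 95% confidence) was not called. It was -1.23 without restored-labelled replicate 1, where the gene was called lower, and -0.33 without parental replicate 1. With the replicate number as a block it was -0.77 and also called lower. The 20 tested genes around C1S, 10 on each side, had a median of -0.40 with 4 called lower, beside 8.77% lower over all genes tested. Exons of C1S share 229 bases with EMG1 on the same strand, whose reads cannot be separated there.

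C3 (chromosome 19, 6677704 to 6730562, ENSG00000125730) stood at 1270.0, 1398.5, 1268 and 1295 CPM in parental and 1465, 1315, 1137 and 1190 CPM in restored-labelled libraries. The groups overlapped, at a log2 difference of -0.03 (SE 0.13; -0.33 to 0.26 with 95% confidence). Its sign turned, to 0.048 with total counts only and to 0.019 without restored-labelled replicate 3. C5 (chromosome 9, 120952335 to 121050276, ENSG00000106804), whose cleavage starts the terminal pathway, stood at 106, 113, 139 and 85.6 CPM and at 131, 104, 125 and 142 CPM. The groups overlapped, and the log2 difference was 0.18 (SE 0.16; -0.17 to 0.53 with 95% confidence), which was not called.

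CFB encodes factor B, the protease of the alternative pathway's C3 convertase (chromosome 6, 31945650 to 31952084, ENSG00000243649). It had 0 counts in each parental library, which allows up to 3 counts per library or between 0.203 and 0.267 CPM. The restored-labelled libraries had 22, 6, 3 and 12 counts, or 0.789, 0.495, 0.148 and 0.468 CPM. Its mean was at least 1.997-fold higher in the restored-labelled group, against the floor of 3 counts per parental library, and replicate 3 lay under that floor. Without an expression filter the gene was called higher, where 10.6% of the genes then tested were called in either direction. Exons of CFB share 2249 bases with the read-through transcript AL645922.1, which had 0 counts in every library; how reads from such shared exons were counted is not given in the sources used here, and its part in the low level was not tested.

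CD46 encodes a membrane cofactor with which factor I inactivates C3b and C4b (chromosome 1, 207752057 to 207795513, ENSG00000117335). Parental replicate 1 had 52.6 CPM and replicates 2 to 4 had 137, 160 and 123 CPM. In the restored-labelled libraries it stood at 204, 157, 182 and 259.9 CPM. The groups met at 160 against 157 CPM, and the log2 difference of 0.77 (SE 0.29; 0.13 to 1.40 with 95% confidence) was not called. Without parental replicate 1 it was 0.52 and called higher, as it was with the DESeq2 Wald test and without an expression filter.

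CD55, decay-accelerating factor, takes apart the C3 and C5 convertases (chromosome 1, 207321376 to 207386804, ENSG00000196352). The gene had 5.16, 2.84, 1.78 and 2.93 CPM in parental and 7.21, 14.0, 10.3 and 14.3 CPM in restored-labelled libraries. Every restored-labelled library was above every parental one. The log2 difference was 1.85 (SE 0.33; 1.12 to 2.57 with 95% confidence), or 3.59-fold, on 20 to 366 counts per library. It lay between 1.65 and 2.33 in the 19 alternatives, with the gene called in each, but these reuse the libraries on which the gene was chosen. CD55 and CD46 lie in the same cluster of complement regulator genes on chromosome 1. The 20 tested genes around CD55, 10 on each side, had a median of 0.32 on the log2 scale and those around CD46 one of 0.22. In each, 6 were called higher and 0 lower, beside 10.4% higher and 8.77% lower over all genes tested. The 2 windows share genes, and the genes counted for CD46 include CD55 itself.

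CD59, which stops the assembly of the membrane pore, lies on chromosome 11, 33703010 to 33736491 (ENSG00000085063). It stood at 38.9, 89.9, 79.3 and 101 CPM in parental and 88.3, 80.5, 89.8 and 91.8 CPM in restored-labelled libraries. Parental replicate 1 was low, and the other 7 libraries lay between 79.3 and 101 CPM. The log2 difference, not called, was 0.18 (SE 0.23; -0.34 to 0.69 with 95% confidence), and without parental replicate 1 it was -0.04. The 2 GPI-anchored regulators were thus called in one case, CD55, and not in the other; the difference between them was not tested.

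**Figure D2:**
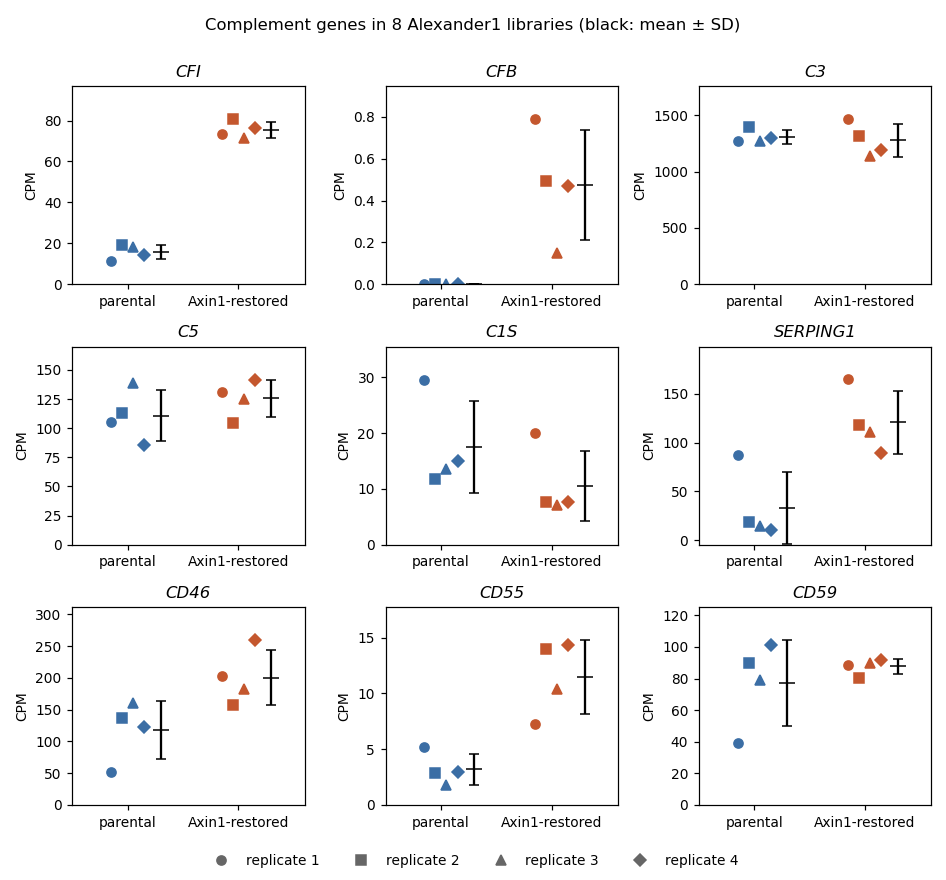
CPM of each of the 9 genes on linear axes in the 4 parental (blue) and 4 restored-labelled (orange) libraries, with the marker shape giving the replicate number and black bars the mean ± SD. CFI, CD55, SERPING1 and CFB, the last near the floor, are higher in all restored-labelled libraries than in any parental one. In 23.9% of all genes tested the groups did not overlap, in either direction. Parental replicate 1 is the highest parental library in SERPING1, C1S and CD55 and the lowest in CD46, CD59 and CFI.

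How the genes varied within a group was described by the deviation of each library's log2 CPM from the mean of its group. Parental replicate 1 was the most extreme of the parental libraries in 6 of the 8 tested genes, with deviations from -1.05 (CD46) to 1.96 (SERPING1). In that library SERPING1, C1S and CD55 were above and CD46, CD59 and CFI below their group's mean. On the second principal component of log2 CPM over all genes tested, parental replicate 1 stood at 61.5. The other parental libraries stood at -9.6, -22.7 and -30.3. In the restored-labelled group the deviations ranged from -0.61 (CD55) to 1.06 (C1S), both in replicate 1. C3 varied least among the parental libraries, and SERPING1 most, with an 8.27-fold range from the lowest to the highest library.

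**Figure D3:**
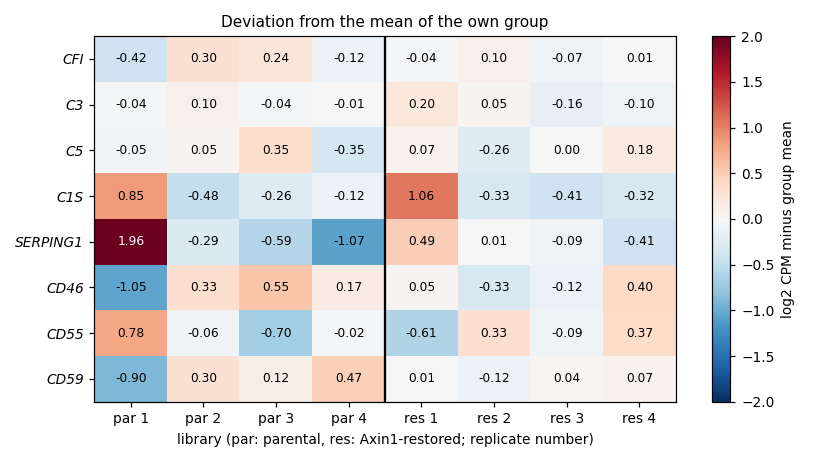
Deviation of log2 CPM from the mean of the library's own group, for the 8 genes tested (rows) in the 8 libraries (columns), with colour and printed value giving the same quantity. The values farthest from zero are those of SERPING1 in parental replicates 1 (1.96) and 4 (-1.07), of C1S in restored-labelled replicate 1 (1.06) and of CD46 in parental replicate 1 (-1.05).

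Genes with the pattern most like each of these were found by Pearson's r of log2 CPM over the 8 libraries, given as a description. The libraries fall into 2 groups, and each r is among the highest of all genes compared over only 8 libraries. A high r is thus easily reached by genes that differ between the groups. It was also reached where the groups differed little, as by PCNA (log2 difference 0.18). Among the nearest were ALDH1B1 (r = 0.994) and NES (r = 0.992) for CFI, ZNF165 (r = 0.990) and CES3 (r = 0.989) for CD55, and IGSF8 (r = 0.989) and POC1B-AS1 (r = 0.985) for SERPING1. For CD46 they were MSANTD4 (r = 0.997) and PDE12 (r = 0.994), for CD59 PCNA (r = 0.994) and TOR1A (r = 0.982), and for C5 DAZAP2 (r = 0.976). They were RNPC3 (r = 0.980) and MTRF1 (r = 0.979) for C1S and TUBA4B (r = 0.952) and JOSD1 (r = 0.927) for C3.

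The remaining complement genes were examined through a list of 42, of which 15 could be tested and 10 had no count in any library. In the restored-labelled libraries 3 were higher (C2, VTN and CLU), 3 were lower (C8A, C8B and CPB2) and 9 did not pass the same threshold. That is 6 of 15 called, beside 19.2% of all genes tested (10.4% higher and 8.77% lower). Their median log2 fold change was 0.48, with 8 above and 7 below zero, against 0.00 for all genes tested. By pathway, 1 of 3 tested classical pathway genes, 0 of 1 of the alternative pathway, 2 of 3 terminal components, 3 of 4 fluid-phase regulators and 0 of 4 receptors passed, and none of the 8 lectin pathway genes passed the expression filter. Without parental replicate 1, 10 of the 17 genes of the list then tested passed, with C1R, C5AR1, C5AR2 and CFD added to the 6. In that setting 24.1% of all genes tested were called.

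C2, the classical pathway's counterpart of CFB and its neighbour on chromosome 6, had 0.801, 0.474, 0.802 and 0.644 CPM in parental and 1.76, 4.21, 2.32 and 2.15 CPM in restored-labelled libraries. The groups did not overlap, and the log2 difference was 1.92 (SE 0.37, edgeR adjusted p = 0.0056). Its level rested on 7 to 55 counts per library, and 1820 bases of its exons are shared with the same read-through transcript. They also share 23 bases with CFB on the same strand, and 141 with ZBTB12 and 159 with C2-AS1 on the opposite strand. Of the pore components, C8B, with 19.0 CPM ± 2.63 in parental libraries, fell to 3.498 CPM ± 0.650 (SD, n = 4 each; -2.44 on the log2 scale, SE 0.20, edgeR adjusted p = 3.2e-05). Its partner C8A fell from 22.4 CPM ± 3.96 to 13.3 CPM ± 2.87, or by a log2 difference of -0.76 (SE 0.20, edgeR adjusted p = 0.0215). That call was lost without parental replicate 2, restored-labelled replicate 3 or restored-labelled replicate 4 (edgeR adjusted p = 0.0744, 0.0693 and 0.0666). C8G, which encodes the remaining chain of the same protein, stood at 161 CPM ± 19.2 and 124 CPM ± 39.7 and did not pass (log2 fold change -0.37, SE 0.21, edgeR adjusted p = 0.244).

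VTN encodes vitronectin, a plasma and matrix protein that also blocks pore insertion. It had 538, 425, 383 and 369 CPM in parental and 948, 1166, 1087 and 862 CPM in restored-labelled libraries, a log2 difference of 1.24 (SE 0.16, edgeR adjusted p = 0.00070). CLU encodes clusterin, a chaperone with the same action on the pore, and its level rose, at 458 CPM ± 163 against 935 CPM ± 107 (SD, n = 4 each; log2 difference 1.03, SE 0.22, edgeR adjusted p = 0.0096). CPB2, a carboxypeptidase that trims the C3a and C5a peptides and also acts on fibrin, fell from 51.8 CPM ± 19.9 to 12.7 CPM ± 5.21 (log2 fold change -2.03, SE 0.34, edgeR adjusted p = 0.0028). In each of these 3 genes the groups did not overlap, as in 23.9% of all genes tested. On the same strand, exons of VTN share 329 bases with AC002094.3 and those of CLU 151 bases with MIR6843. The part of this sharing in their levels was not tested.

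**Figure D4:**
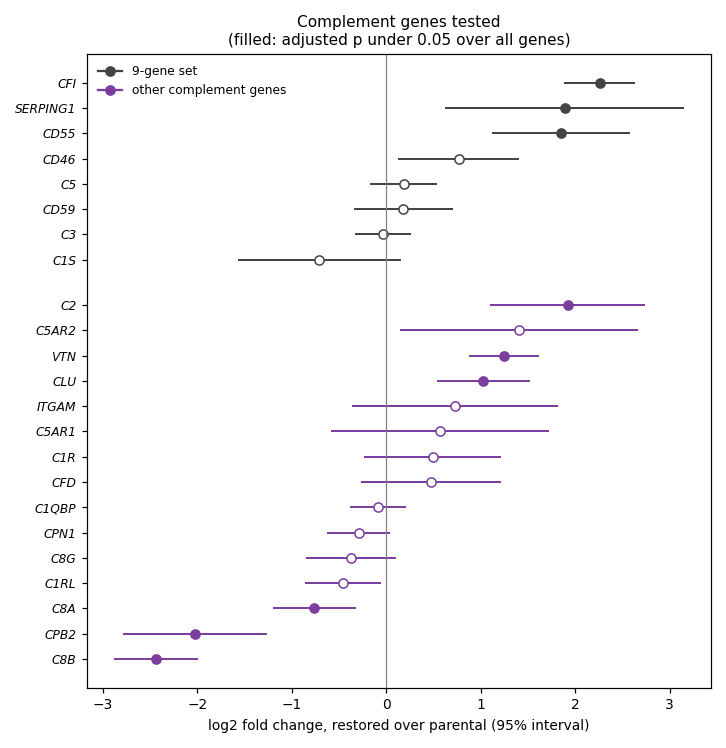
Log2 fold change (restored-labelled over parental) with its 95% confidence interval for the 8 tested genes of the set (grey) and the 15 other complement genes tested (purple), with filled points for an adjusted p under 0.05 over all genes. The filled points lie on both sides of zero among the other complement genes, from 1.92 for C2 to -2.44 for C8B.

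The making of the GPI anchor that CD55 and CD59 carry was examined through 29 genes, 28 of them tested. Of these, 8 were higher in the restored-labelled group and 2 lower, the median being 0.28, and 18 did not pass. Over all genes tested 10.4% were higher and 8.77% lower, with a median of 0.00. PIGA, a subunit of the enzyme of the pathway's opening step, rose, with 9.70 CPM ± 2.06 against 22.4 CPM ± 4.88 (SD, n = 4 each; log2 difference 1.21, SE 0.20, edgeR adjusted p = 0.0028). PIGO, which adds an ethanolamine phosphate, rose from 43.5 CPM ± 5.43 to 69.9 CPM ± 11.1 (0.68, SE 0.15, edgeR adjusted p = 0.0104). The mannosyltransferase gene PIGB rose from 9.55 CPM ± 1.28 to 16.4 CPM ± 2.64 (0.78, SE 0.18, edgeR adjusted p = 0.0125), and its exons overlap those of RAB27A, PIGBOS1 and CCPG1 on the opposite strand. PIGZ, which adds a side-chain mannose, fell from 5.80 CPM ± 1.80 to 1.62 CPM ± 0.825 (-1.82, SE 0.37, edgeR adjusted p = 0.0072). Without restored-labelled replicate 4, 4 of these genes passed, and 9.71% of all genes tested.

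Receptors and factors through which cytokines act on complement genes formed a list of 27, with 26 tested. In the restored-labelled libraries 6 were higher and 3 lower, 17 did not pass, and the median log2 fold change was 0.08, beside 19.2% called and a median of 0.00 over all genes tested. STAT3, the factor activated by interleukin-6, rose, with 91.6 CPM ± 6.45 against 166 CPM ± 17.8 (SD, n = 4 each; log2 difference 0.86, SE 0.12, edgeR adjusted p = 0.00098). The interleukin-6 receptor gene IL6R fell from 130 CPM ± 37.3 to 60.5 CPM ± 4.62 (-1.10, SE 0.18, edgeR adjusted p = 0.0028). The interferon gamma receptor gene IFNGR1 rose from 53.5 CPM ± 8.17 to 104 CPM ± 13.3 (0.96, SE 0.14, edgeR adjusted p = 0.0015), and the kinase gene TYK2 from 53.1 CPM ± 4.93 to 82.3 CPM ± 4.93 (0.63, SE 0.11, edgeR adjusted p = 0.0042). Without parental replicate 4, restored-labelled replicate 3 or restored-labelled replicate 4, 5 genes of the list passed in each case. In these settings 14.7%, 10.7% and 9.71% of all genes tested were called, in that order.

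**Figure D5:**
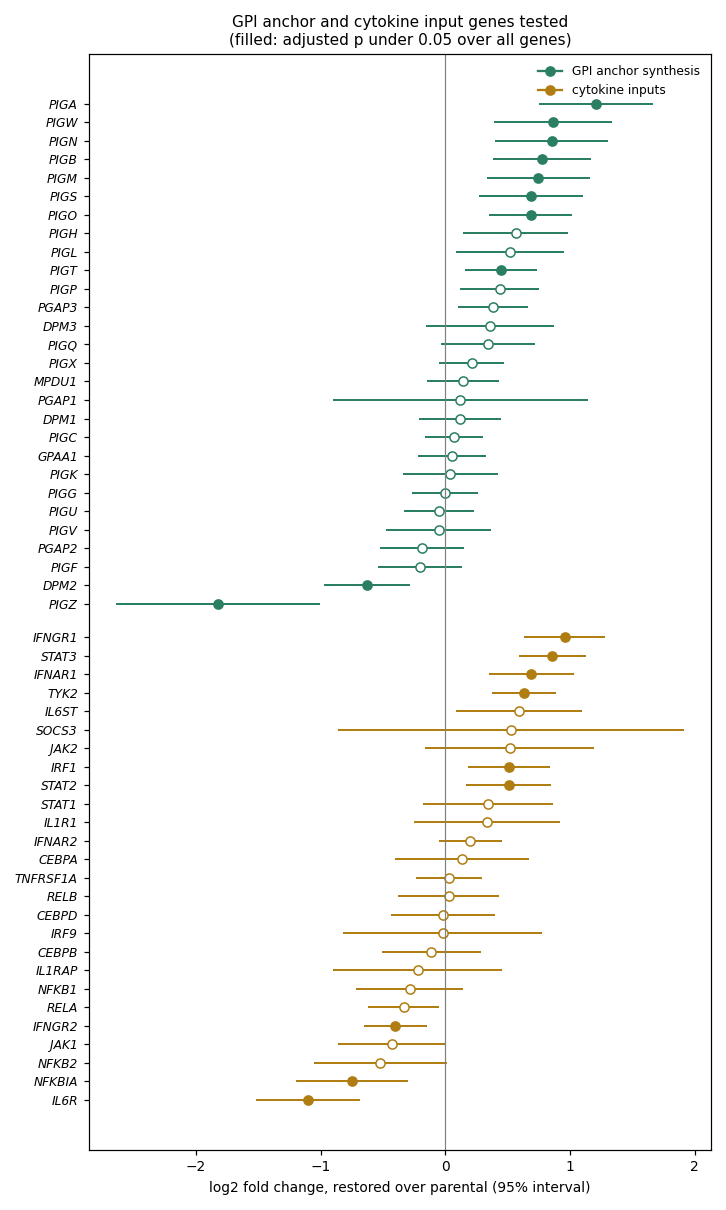
Log2 fold change (restored-labelled over parental) with its 95% confidence interval for 28 GPI anchor genes (green) and 26 cytokine input genes (yellow), with filled points for an adjusted p under 0.05 over all genes. Of the GPI anchor genes 8 filled points lie above and 2 below zero, and of the cytokine input genes 6 above and 3 below.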

How the data were processed

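RNA-seq libraries of 4 parental and 4 restored-labelled samples were grouped by their titles. The deposited table holds raw counts per Ensembl gene, which the authors did not normalize, as its whole numbers and unequal totals show. Per the submitters' processing notes, bcl2fastq, fastp 0.23.1 and STAR 2.7.4 were used with build GRCh38; the counting program, its annotation and its use of strand are not given in the sources used here. Each of the 8 columns was matched to a sample by the labels.

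Positions, union exon lengths and exon overlaps came from GENCODE 29 (57943 of 58206 identifiers found), and symbols from a table matching 57495 identifiers. TPM used those lengths. The test was run in edgeR 4.0.16 (R 4.3.3), with filterByExpr (minimum count 10, minimum total 15), TMM scaling and the quasi-likelihood test without covariates. P-values are two-sided and Benjamini-Hochberg adjusted over all 14289 genes, with a threshold of 0.05. Each SE was derived from the fitted log2 fold change and its F statistic. Log2 CPM used a prior count of 2, and floors of 3 counts cover counting error only. The code was tested on simulated data.

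The genes and lists were chosen with earlier results of these data known. Named genes are the 9 genes, AXIN1, the called genes among other complement genes, the 4 with the smallest p of the GPI and cytokine lists, and the 2 most alike in pattern to each gene (mean of at least 1 CPM); 1 gene that this rule names is not reported here, and others were named after their values were seen. Alternatives were other scalings and filters, DESeq2 1.42.0, limma-voom (limma 3.58.1), a replicate block, a threshold of 0.01, libraries thinned to 11232951 counts, and each library left out. The threshold of 0.01 reuses the main fit, so it can change a call but not a log2 fold change. Leaving out both libraries numbered 1 was added after seeing the data.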

Additional observations from a re-analysis of the deposited data

Results flagged for a closer look

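In 5 of the 48 groups of 4 values considered, 1 library lay far from the other 3, where chance gives about 1 in 20. These were C1S in restored-labelled replicate 1 (20.0 CPM against 7.15 to 7.61 CPM), SERPING1 in parental replicate 1 (87.6 CPM against 10.6 to 18.3 CPM) and CPB2 in restored-labelled replicate 1 (20.4 CPM against 8.94 to 10.6 CPM). AXIN1 in restored-labelled replicate 4 was low (37.7 CPM against 47.6 to 48.2 CPM), and PIGA in the same library was high (29.7 CPM against 19.0 to 20.8 CPM).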

How the results depend on the processing

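Of the 23 named genes that were tested, 15 kept their direction and their side of the threshold in all 19 alternatives; the others are SERPING1, C8A, CD46, C1S, C3 and CD59, and PIGO and PIGB, which passed at 0.05 but not at 0.01. The log2 fold change of C3 reversed to 0.048 with total counts only, and ranged from -0.108 to 0.019 with 1 library left out, the latter without restored-labelled replicate 3. That of CD59 ranged from -0.042 to 0.334 with 1 library left out, reversing only without parental replicate 1, and was -0.043 with both libraries numbered 1 left out. Genes called numbered 2738, and 964 at an adjusted p under 0.01, or 6.75% of all genes tested. At that threshold 2 of 28 tested GPI and 4 of 26 tested cytokine genes passed. Fewer genes pass a lower threshold by construction. With both libraries numbered 1 left out, 4623 genes, 5 of the 9 genes, 10 other complement genes and 15 cytokine genes were called, beside 32.3% of all genes tested. Without an expression filter 5 of the 9 genes were called, with CFB and CD46 added, beside 10.6% of all 30224 genes then tested. Leaving out 1 library gave 1394 to 3523 genes (9.71% to 24.1%), 2 to 4 of the 9 genes, 5 to 10 other complement genes, 4 to 11 GPI and 5 to 11 cytokine genes; AXIN1 ranged from -0.26 to -0.13. The cause of these shifts was not tested. Same-numbered libraries deviated together in no regular way (r = -0.06, 0.007, -0.03 and 0.23), and 1 of 4 parental libraries correlated best with its own number, so the numbers were not taken as pairs. With the replicate block 2033 genes (14.2%) and 4 of the 9 genes were called, C1S being added. CFB and 27 other listed complement genes had too few counts for the expression filter, and 10 of the 27 had none in any library.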

Other observations

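The 2 receptors for the C5a peptide and the alternative pathway protease gene CFD shared the high value of SERPING1 in parental replicate 1. That library stood apart over all genes tested, not only in complement genes. On the second principal component of log2 CPM it was at 61.5, against -30.3 to -9.6 for the other parental libraries. C5AR1 stood at 59.2 CPM in that library, between 9.95 and 11.5 CPM in the other parental libraries and between 27.1 and 44.6 CPM in the restored-labelled ones. C5AR2 stood at 21.5 CPM there, between 2.94 and 4.47 CPM in the other parental libraries and between 11.2 and 26.4 CPM in the restored-labelled ones. CFD stood at 21.0 CPM there, between 6.01 and 8.87 CPM in the other parental libraries and between 12.7 and 17.7 CPM in the restored-labelled ones. With all 8 libraries none of the 3 passed (edgeR adjusted p = 0.479, 0.109 and 0.344), and without parental replicate 1 the log2 fold changes were 1.65, 2.53 and 0.99 (edgeR adjusted p = 0.00016, 0.00023 and 0.0039). Of all genes tested, 19.2% were called with all libraries and 24.1% without parental replicate 1. C5AR1, C5AR2 and CFD were chosen after their values were seen.

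C4BPA, which encodes a plasma regulator and lies in the same cluster on chromosome 1 as CD55 and CD46, had 0, 0, 1 and 0 counts in parental and 1, 6, 13 and 19 counts in restored-labelled replicates 1 to 4. It did not pass the expression filter, and without that filter it was called higher (edgeR adjusted p = 0.0049). MASP1, a protease gene of the lectin pathway, had 9, 4, 7 and 4 counts in parental and 1, 3, 0 and 1 counts in restored-labelled replicates 1 to 4. It too did not pass the filter, and without it was called lower (edgeR adjusted p = 0.0215). These 2 genes and CFB were called only in that setting, where 10.6% of 30224 genes were called. C4BPA and MASP1 were chosen after their values were seen.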
